A study of Homo sapiens with 16 samples.

Results

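The respiratory chain and ATP synthase were followed at the transcript level through 102 protein-coding genes, 13 carried by mitochondrial DNA and 89 by the nucleus, out of 60448 genes in the count tables. Genes were chosen by symbol: MT-ND, MT-CO, MT-ATP and MT-CYB genes for the mitochondrial set, and the NDUF, SDH, UQCR, CYC1, COX4 to COX8 and ATP5F1, ATP5M and ATP5P genes for the nuclear set. By symbol, 39 nuclear genes belong to complex I, 4 to complex II, 10 to complex III, 17 to complex IV and 19 to ATP synthase (complex V). NDUFA4 is counted with complex I by its symbol, although its protein is now assigned to complex IV.

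All 16 libraries came from HMLER cells, human mammary epithelial cells transformed by introduced genes, grown in 1 medium. The 8 groups had 2 libraries each. sgEED-Mes and sgEED-Epi are mesenchymal and epithelial cells of the C1 population that received a guide against EED, a subunit of the Polycomb complex that methylates histone H3 at lysine 27, and are labelled EED-KO. sgKMT2D-Mes and sgKMT2D-Epi are the matching states after a guide against KMT2D, a histone H3 lysine 4 methyltransferase. sgControl is C1 with a control guide, C2-Mes and C2-Epi are mesenchymal and epithelial cells of a second population, C2, and C1 is the unedited, stably epithelial population; sgControl, C2 and C1 are labelled wild type. The labels do not say whether any population is a clone, or whether the 2 libraries of a group came from separate cultures, so the tests rest on the spread within pairs of libraries, and that spread may be technical.

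Electrons from NADH and succinate enter the chain at complexes I and II, pass through complexes III and IV to oxygen, and the proton gradient built on the way drives ATP synthase. Mitochondrial DNA encodes core subunits of complexes I, III, IV and V. Its long primary transcripts are cut into shorter messages, so its protein genes are made together. Complex II is encoded wholly in the nucleus. MT-ND6 is the only mitochondrial protein gene read in the opposite direction from the other 12. The ATP5MC1, ATP5MC2 and ATP5MC3 genes lie on different chromosomes and encode the same mature c subunit of the ATP synthase rotor, differing in the leader peptide that is removed on import.

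The promoters of the genes on which the results turn are shown first. RefSeq windows of 300 bases, 250 before to 50 after the start of transcription, were found for 67 of the 89 nuclear genes (80 windows, build GRCh38.p14). The core of the site of nuclear respiratory factor 1, GCATGCGC or its reverse complement, was in 18.75% of these windows and in 3.053% of all 35116 windows. The ETS site CCGGAAG was in 26.25% against 10.26%, the YY1 site AAGATGG in 23.75% against 5.841%, and the site of the oestrogen-related receptors, TCAAGGTCA, in 1.25% against 0.353%, each searched on both strands. Printed below are the 250 bases before the start of ATP5MC2, the gene that rose in all 3 transitions, of its paralog ATP5MC1, of SDHB, the gene that fell in all 3, and of SDHD, its partner in complex II. They lie at chr12:53676084-53676333 (minus strand, 1 of 3 windows of the gene), chr17:48892537-48892786 (plus strand), chr1:17054033-17054282 (minus strand) and chr11:112086623-112086872 (plus strand). Capitals mark the nuclear respiratory factor 1 core and the ETS site, on either strand. ATP5MC1 held neither in its 250 bases, ATP5MC2 held the first alone, and SDHB and SDHD held both.
ATP5MC2: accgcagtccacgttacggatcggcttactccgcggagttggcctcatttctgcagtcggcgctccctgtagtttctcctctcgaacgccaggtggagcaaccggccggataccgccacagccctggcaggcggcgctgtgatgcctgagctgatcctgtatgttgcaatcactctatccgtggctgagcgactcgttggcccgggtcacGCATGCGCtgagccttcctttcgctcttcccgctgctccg
ATP5MC1: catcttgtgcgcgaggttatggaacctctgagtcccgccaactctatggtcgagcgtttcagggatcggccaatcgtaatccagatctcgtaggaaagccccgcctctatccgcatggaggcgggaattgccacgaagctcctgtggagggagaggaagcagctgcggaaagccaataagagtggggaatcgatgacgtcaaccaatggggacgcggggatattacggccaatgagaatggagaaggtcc
SDHB: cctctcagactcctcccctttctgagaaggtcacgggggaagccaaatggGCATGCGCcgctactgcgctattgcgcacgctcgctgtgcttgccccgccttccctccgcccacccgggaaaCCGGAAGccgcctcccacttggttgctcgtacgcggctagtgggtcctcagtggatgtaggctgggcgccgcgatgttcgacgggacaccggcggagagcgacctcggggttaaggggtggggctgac
SDHD: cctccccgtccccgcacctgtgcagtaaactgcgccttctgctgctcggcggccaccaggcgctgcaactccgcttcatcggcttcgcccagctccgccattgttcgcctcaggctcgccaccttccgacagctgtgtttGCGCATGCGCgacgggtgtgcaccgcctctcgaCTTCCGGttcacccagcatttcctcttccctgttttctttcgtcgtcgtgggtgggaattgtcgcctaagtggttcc

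As a check of the labelled states, CDH1 (E-cadherin) lay between 0.088 and 1.42 counts per 1000000 (CPM) in the 6 mesenchymal libraries. It lay between 211 and 395 CPM in the 10 epithelial ones. Summed, 6 epithelial markers (CDH1, EPCAM, KRT5, KRT14, KRT8 and GRHL2) averaged 1088 ± 136 CPM in sgEED-Mes, against 5727 ± 737 in sgEED-Epi. The sum was 56.6 ± 4.60 CPM in sgKMT2D-Mes and 99.1 ± 13.1 in C2-Mes, against 4444 ± 68.5 in sgKMT2D-Epi and 5720 ± 59.4 in C2-Epi. EED transcript averaged 5.36 ± 0.20 CPM in sgEED-Mes, 28.1 ± 1.99 in sgEED-Epi and 24.1 ± 3.52 in sgControl, and KMT2D averaged 81.7 ± 6.92 in sgKMT2D-Mes, 126 ± 1.84 in sgKMT2D-Epi and 80.4 ± 13.4 in sgControl (SD, n = 2 each); neither edited epithelial group had less of its target's transcript than sgControl. A guide alters the coding sequence and need not lower the transcript. Total counts ran from 18872124 to 31950649, both in C2-Mes. That pair also stood apart from the others: the SD of its log2 differences over genes was 0.890, against 0.361 to 0.493 within the other 7 groups. CPM are scaled by TMM and are shares of the RNA in a library, and in bulk RNA fewer cells making a transcript and less of it per cell cannot be told apart.

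The 13 mitochondrial genes together took 5.61% to 10.4% of a library's counts, and the 89 nuclear genes 0.401% to 0.829%. The mitochondrial sum was 63737 and 108934 CPM in sgEED-Mes, against 51458 and 55809 CPM in sgEED-Epi. It was 68482 and 65816 CPM in sgKMT2D-Mes, against 83819 and 74224 CPM in sgKMT2D-Epi. In C2-Mes it was 114216 and 69767 CPM, against 56870 and 59599 CPM in C2-Epi. Thus both mesenchymal libraries lay above both epithelial ones in the sgEED and C2 cells and below them in the sgKMT2D cells, and the 2 libraries of sgEED-Mes and of C2-Mes differed from each other by 1.71 and 1.64 times, against at most 1.16 times in the other 6 groups. The nuclear sum moved the other way in C2-Mes, where the library with the high mitochondrial sum had 4421 CPM and its partner 6047 CPM. sgControl had 79568 and 92082 CPM from the mitochondrial genes, and C1 had 75437 and 71343 CPM. The nuclear sum was 6938 and 8487 CPM in sgControl, the second of which was the highest of all libraries, and 7126 and 7102 CPM in C1.

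**Figure D1:**
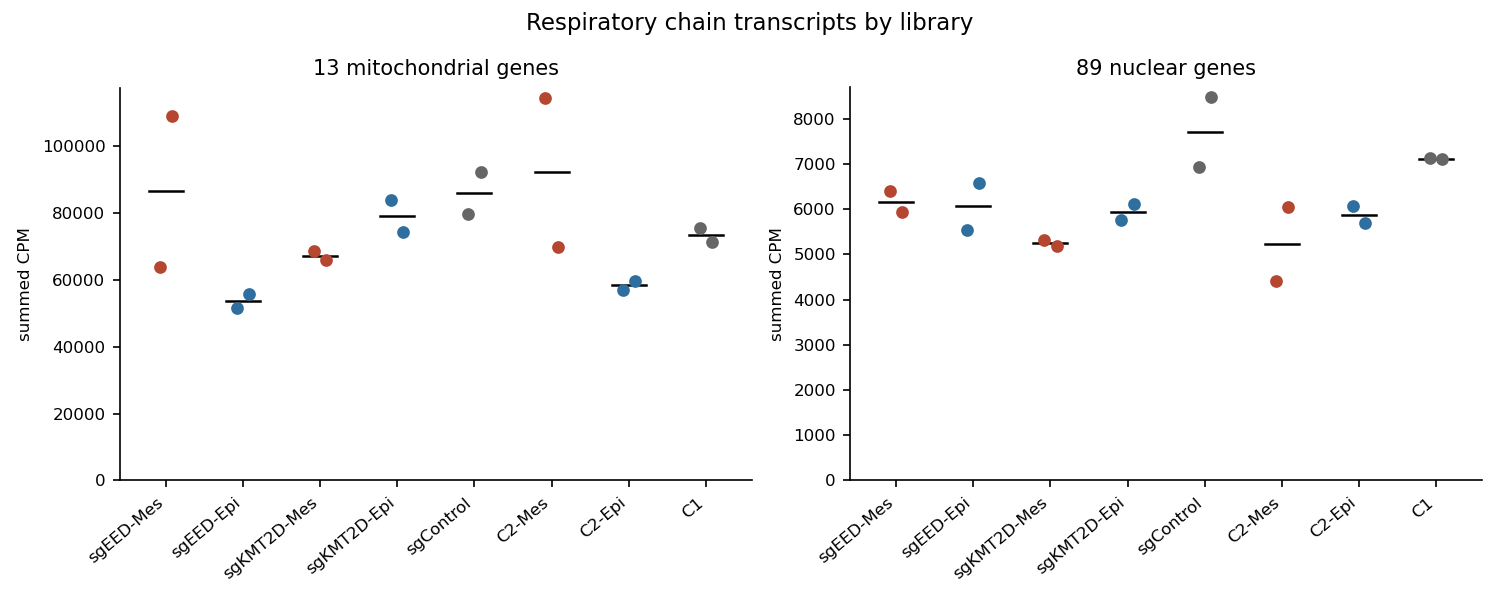
Summed CPM of the 13 mitochondrial genes (left) and the 89 nuclear genes (right) in each library (points) with the mean of each pair (line); red marks mesenchymal groups, blue the epithelial groups set against them and grey sgControl and C1. The 2 libraries of sgEED-Mes (63737 and 108934 CPM) and of C2-Mes (114216 and 69767 CPM) stand far apart for the mitochondrial genes.

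Of the 102 genes, 94 passed the filter on low counts, the 13 mitochondrial ones and 81 nuclear ones. The 8 that did not were COX4I2, COX6A2, COX7A1, COX7B2 and COX8C, isoforms known from lung, heart, muscle or testis, the read-through genes NDUFC2-KCTD14 and ATP5MF-PTCD1, and ATP5MGL; none exceeded 0.219 CPM in any library. Their ubiquitous partners were all present: COX4I1 averaged 174 CPM over the 16 libraries, COX6A1 51.8, COX7A2 66.0, COX7B 73.2 and COX8A 49.5 CPM. Per kilobase of exon, the highest levels among mitochondrial genes were those of MT-CO2 (12048 CPM per kb) and MT-CO1 (11010 CPM per kb), and MT-ND6 was lowest at 407 CPM per kb. ATP5F1B, the catalytic beta subunit of ATP synthase, reached 265 CPM per kb. NDUFA13, NDUFA7, NDUFV2 and NDUFA4L2 lay between 0.0398 and 4.27 CPM in every library, although the first 3 are subunits of every complex I. Of the exon bases of NDUFV2, NDUFA13 and NDUFA7, 28.4%, 21% and 33.5% also belong to other genes. COX8A, with 34.5% shared, lay between 28.5 and 83.6 CPM in the 14 libraries outside C1. How reads in shared exons were counted is not given in the sources used here, and their part in the low counts was not tested.

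Through the 3 epithelial to mesenchymal transitions, most nuclear respiratory chain genes changed little. In sgEED-Mes against sgEED-Epi, 5 of the 81 tested nuclear genes rose (6.17%, against 19.2% of all 18285 genes tested) and 3 fell (3.70% against 17.3%), by edgeR's quasi-likelihood test at a Benjamini-Hochberg adjusted p under 0.05. In sgKMT2D-Mes against sgKMT2D-Epi, 7 rose (8.64% against 26.8%) and 18 fell (22.2% against 24.0%). In C2-Mes against C2-Epi, 2 rose (2.47% against 21%) and 10 fell (12.3% against 18.6%). In either direction, 9.88%, 30.9% and 14.8% of the nuclear genes were called, against 36.5%, 50.8% and 39.6% of all genes. A change beyond 1 on the log2 scale, in either direction, was estimated for 2.47%, 3.70% and 1.23% of the nuclear genes in the 3 transitions, against 27.3%, 38.7% and 31.3% of all genes tested. Over both gene sets, 54 of the 94 tested genes (57.4%) were called in none of the 3 transitions, against 30.8% of all genes. The medians of the nuclear genes were 0.06, -0.05 and -0.11, beside 0.01, 0.02 and 0.01 for all genes. In C2, the nuclear median was -0.48 without C2-Mes replicate 2 and 0.006 without C2-Mes replicate 1, beside -0.05 and -0.10 for all genes. Scaling by library totals alone put the median of all genes at -0.20 in sgEED and -0.18 in C2, and that of the nuclear genes at -0.16 and -0.31. With it 1 nuclear gene rose and 11 fell in sgEED and 20 fell in C2. The share of all genes called was not counted under that scaling.

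**Figure D2:**
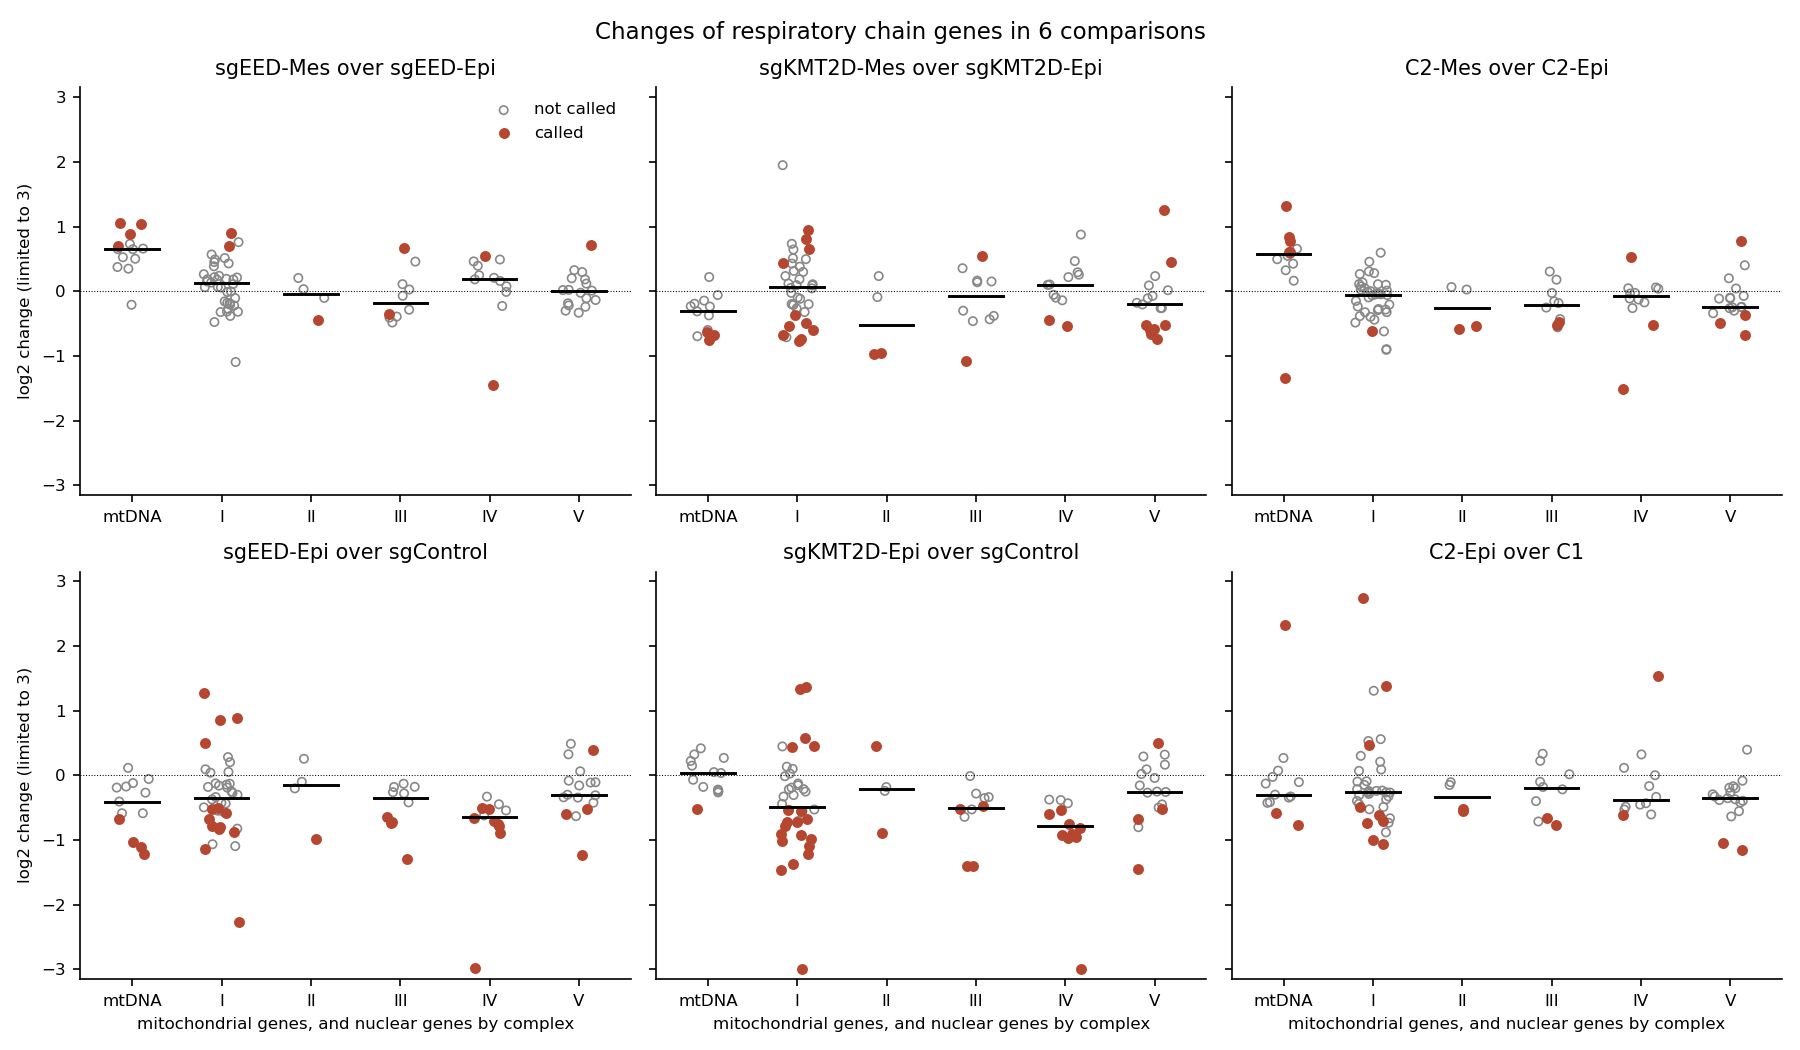
Log2 change of each tested gene in 6 comparisons, for the mitochondrial genes (mtDNA) and the nuclear genes of complexes I to V; filled points passed an adjusted p under 0.05, open points did not, lines are medians, and values beyond 3 are drawn at 3. In the upper row (mesenchymal over epithelial) the nuclear medians lie between -0.52 and 0.20, and in the lower row the nuclear genes of complex IV lie below 0 against sgControl in both edited populations.

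The gene of the set that rose in every transition was ATP5MC2 (ENSG00000135390, 12:53632726-53677408), 1 of the 3 genes of the ATP synthase c subunit; 7.69% of all genes tested rose in all 3. It measured 98.6 and 74.0 CPM in sgEED-Mes, against 46.9 and 58.0 CPM in sgEED-Epi. It measured 111 and 104 CPM in sgKMT2D-Mes, against 41.6 and 48.2 CPM in sgKMT2D-Epi. In C2-Mes it measured 87.7 and 111 CPM, against 62.6 and 52.7 CPM in C2-Epi. The groups did not overlap in any of the 3 pairs, and the log2 changes were 0.72 ± 0.19, 1.26 ± 0.19 and 0.78 ± 0.19 (SE), with adjusted p of 0.0076, 7.907e-05 and 0.00399 in edgeR. The sgEED call was lost with library totals alone (0.51, adjusted p = 0.0616), with only the compared libraries (adjusted p = 0.0529), when sgEED-Epi replicate 1 (0.0834) or sgEED-Mes replicate 1 (0.102) was left out, and the C2 call with only the compared libraries (0.0670) and without C2-Epi replicate 2 (0.0773). The sgKMT2D call held under all alternatives. High ATP5MC2 was not particular to mesenchymal cells: it was 109 and 137 CPM in the epithelial sgControl libraries and 78.3 and 75.9 CPM in C1.

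The other 2 c subunit genes did not rise. ATP5MC3 measured 99.9 and 100 CPM in sgKMT2D-Mes, against 147 and 153 CPM in sgKMT2D-Epi, and fell by 0.59 ± 0.20 on the log2 scale (adjusted p = 0.0242, edgeR). It fell by 0.68 ± 0.20 in C2 (adjusted p = 0.0146), with 65.1 and 103 CPM in C2-Mes against 143 and 126 CPM in C2-Epi. Both calls were lost with a correction for GC content and length (adjusted p = 0.182 and 0.102), the first also without 3 of the 4 libraries in turn (0.0505 to 0.0582) and the second also with only the compared libraries (0.161). ATP5MC1 fell in sgKMT2D by 0.60 ± 0.23 (adjusted p = 0.0425), a call lost without 3 of the 4 libraries in turn. The summed CPM of the 3 genes was 237 and 230 in sgKMT2D-Mes, against 225 and 243 in sgKMT2D-Epi, so the sums overlapped while the makeup differed. ATP5MC2 made up 46.7% and 45.4% of that sum in sgKMT2D-Mes, against 18.4% and 19.8% in sgKMT2D-Epi. Its share was 33.4% and 32.5% in sgEED-Mes, against 20.7% and 21.2% in sgEED-Epi, and 51.3% and 45.4% in C2-Mes, against 26.6% and 25.5% in C2-Epi. The share was 44.5% and 44.1% in sgControl and 26.3% and 25.9% in C1. These shares do not depend on library scaling, since the 3 genes are read in the same library.

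**Figure D3:**
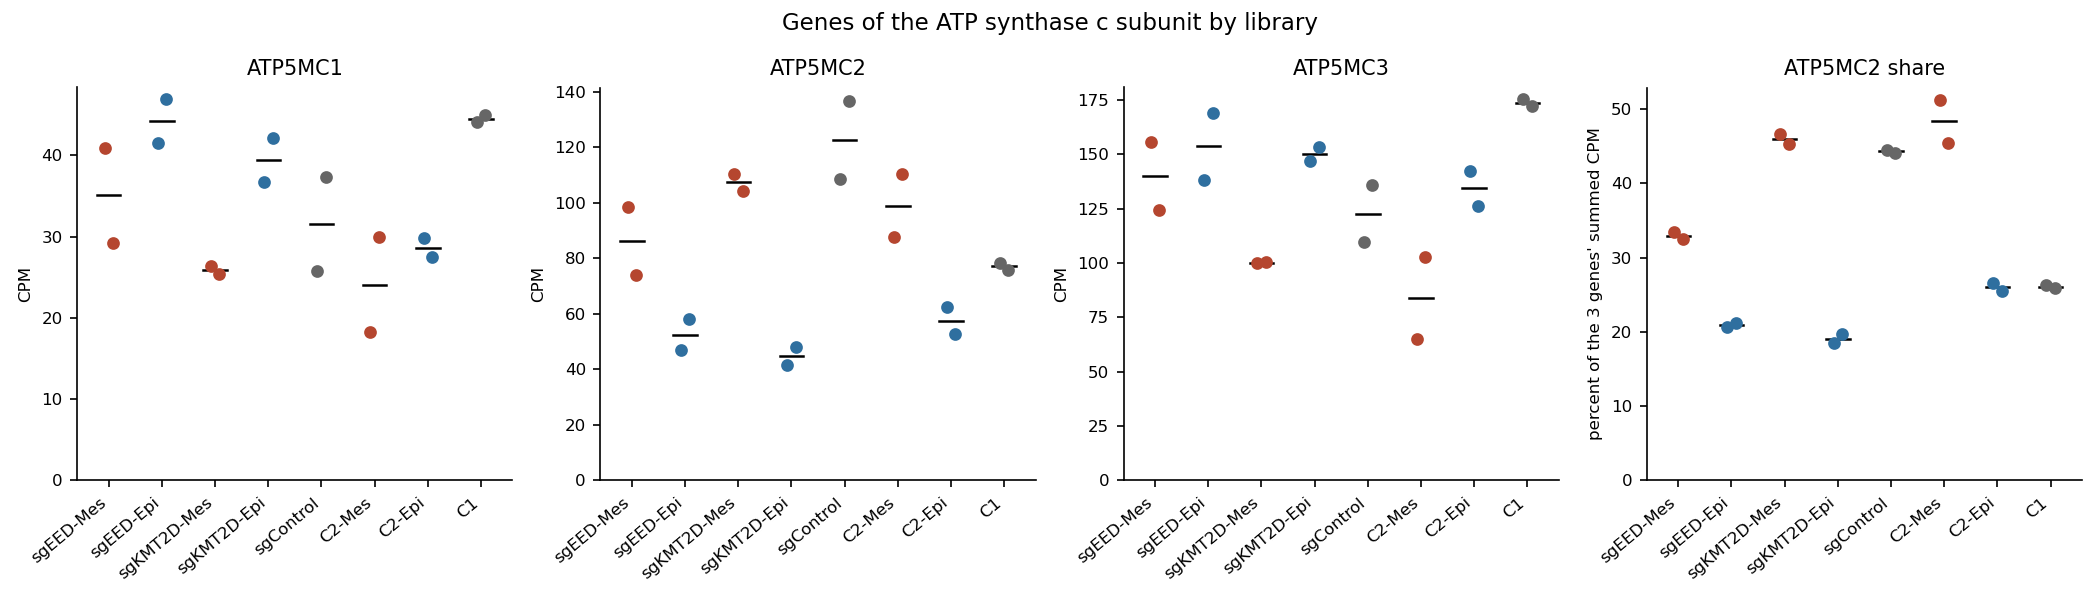
CPM of the 3 genes of the ATP synthase c subunit, and the share of their sum that ATP5MC2 makes up, in each library (points) with pair means (lines); red marks mesenchymal groups, blue the epithelial groups set against them and grey sgControl and C1. The ATP5MC2 share is 32.5% or more in all mesenchymal libraries and in sgControl, and 26.6% or less in the other epithelial libraries.

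Elsewhere in ATP synthase, ATP5PB, subunit b of the stalk that holds the catalytic head still, measured 151 and 147 CPM in sgKMT2D-Mes, against 247 and 252 CPM in sgKMT2D-Epi. It fell by 0.74 ± 0.12 there (adjusted p = 0.0001928, edgeR) under all alternatives. It fell by 0.37 ± 0.12 in C2 (adjusted p = 0.0261), a call lost with only the compared libraries (adjusted p = 0.194). In all, 2 of the 17 tested nuclear genes of ATP synthase rose and 6 fell in sgKMT2D, 1 rose and 3 fell in C2, and 1 rose and none fell in sgEED (0 also at an unadjusted p under 0.05 in edgeR). The 35.3% that fell in sgKMT2D stand beside 24.0% of all genes, the 17.6% in C2 beside 18.6%, and the 11.8%, 5.88% and 5.88% that rose in sgKMT2D, C2 and sgEED beside 26.8%, 21% and 19.2%.

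Complex II, which is both a citric acid cycle enzyme and an entry point of the chain, held the gene that fell in every transition. SDHB, its iron-sulphur subunit (ENSG00000117118, 1:17018722-17054170), measured 69.6 and 73.9 CPM in sgEED-Mes, against 87.4 and 108 CPM in sgEED-Epi. It measured 51.2 and 49.7 CPM in sgKMT2D-Mes, against 97.6 and 101 CPM in sgKMT2D-Epi, and 60.9 and 80.0 CPM in C2-Mes, against 106 and 100 CPM in C2-Epi. All 6 mesenchymal libraries lay below all epithelial ones, where C1 had 117 and 111 CPM. SDHB fell by 0.45 ± 0.16, 0.97 ± 0.16 and 0.54 ± 0.16 on the log2 scale (adjusted p = 0.0373, 0.0001542 and 0.0127, edgeR), and 7.03% of all genes tested fell in all 3. The sgEED call was lost when sgEED-Epi replicate 2 (adjusted p = 0.152) or sgEED-Mes replicate 1 (0.0835) was left out, and the C2 call with only the compared libraries (0.144).

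SDHD, a membrane anchor of complex II, measured 42.4 and 41.1 CPM in sgKMT2D-Mes, against 82.9 and 78.2 CPM in sgKMT2D-Epi. It measured 30.4 and 22.1 CPM in C2-Mes, against 37.0 and 41.9 CPM in C2-Epi. It fell by 0.95 ± 0.19 and 0.59 ± 0.19 on the log2 scale (adjusted p = 0.0008014 and 0.0232, edgeR), with no overlap of the groups in either pair; the C2 call was lost with only the compared libraries (adjusted p = 0.155) and when C2-Epi replicate 2 (0.101) or C2-Mes replicate 2 (0.0923) was left out. In sgEED-Mes it measured 52.9 and 77.5 CPM, within which range sgEED-Epi fell at 64.3 and 75.7 CPM. The sgEED and sgKMT2D changes differed by 0.84 ± 0.26 (adjusted p = 0.0364), a call lost when any of the 8 libraries but sgEED-Mes replicate 1 was left out (adjusted p from 0.0542 to 0.152). SDHA, the flavin-carrying catalytic subunit, and SDHC, the other membrane anchor, passed the test in no transition.

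In complex III, CYC1 (cytochrome c1) measured 42.5 and 40.4 CPM in sgKMT2D-Mes, against 81.4 and 94.3 CPM in sgKMT2D-Epi, and fell by 1.08 ± 0.18 on the log2 scale (adjusted p = 0.0002318, edgeR). In C2-Mes it measured 86.0 and 125 CPM, against 154 and 142 CPM in C2-Epi, and fell by 0.48 ± 0.18 (adjusted p = 0.0471), a call lost with only the compared libraries (adjusted p = 0.234), with the replicate block (0.0514), and without C2-Epi replicate 1 (0.0979), C2-Epi replicate 2 (0.0506) or C2-Mes replicate 1 (0.0987). UQCRC2, a core protein of the complex (ENSG00000140740, 16:21952660-21983660), was the gene of the set called in opposite directions. It measured 112 and 116 CPM in sgKMT2D-Mes, against 76.7 and 80.1 CPM in sgKMT2D-Epi, and rose by 0.54 ± 0.11 (adjusted p = 0.00137). It measured 139 and 131 CPM in sgEED-Mes, against 168 and 176 CPM in sgEED-Epi, and fell by 0.35 ± 0.11 (adjusted p = 0.0269). That fall was lost with no filter on low counts (adjusted p = 0.103), with only the compared libraries (0.0613), and without sgEED-Epi replicate 2 (0.0588) or sgEED-Mes replicate 2 (0.0659), while the rise in sgKMT2D passed under all alternatives. The difference between the 2 changes was -0.89 ± 0.16 (adjusted p = 0.00156) and passed under all alternatives; 20.1% of all genes tested passed this test of sgEED against sgKMT2D. Among the libraries, sgKMT2D-Epi was lowest for UQCRC2. UQCRB, another subunit of the complex, measured 203 and 272 CPM in sgEED-Mes, against 137 and 162 CPM in sgEED-Epi, and rose by 0.67 ± 0.16 (adjusted p = 0.00497), a call lost without sgEED-Mes replicate 2 (adjusted p = 0.0725) or sgEED-Epi replicate 1 (0.0592), with only the compared libraries (0.0515) and with the GC and length correction (0.167).

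In complex I, whose accessory subunits surround the core, 2 of the 38 tested nuclear genes rose and none fell in sgEED, 4 rose and 7 fell in sgKMT2D, and none rose and 1 fell in C2. The shares that rose were 5.26%, 10.5% and 0%, against 19.2%, 26.8% and 21% of all genes, and the shares that fell 0%, 18.4% and 2.63%, against 17.3%, 24.0% and 18.6%. The low count in sgEED stands at 4 risen and 0 fallen, and that in C2 at 0 risen and 2 fallen, at an unadjusted p under 0.05 in edgeR. NDUFB10, a subunit of the membrane arm, measured 53.4 and 50.0 CPM in sgKMT2D-Mes, against 29.8 and 29.4 CPM in sgKMT2D-Epi, and rose by 0.80 ± 0.19 (adjusted p = 0.00311, edgeR) under all alternatives. The sgKMT2D-Epi libraries were the lowest of all for NDUFB10. C1 had 65.9 and 62.7 CPM and sgControl 55.6 and 71.1 CPM, above both sgKMT2D-Mes libraries. NDUFB11, of the same arm, measured 48.3 and 35.0 CPM in sgEED-Mes, against 22.1 and 29.1 CPM in sgEED-Epi, and 52.3 and 47.8 CPM in sgKMT2D-Mes, against 24.8 and 27.4 CPM in sgKMT2D-Epi. It rose by 0.70 ± 0.24 and 0.94 ± 0.24 (adjusted p = 0.0361 and 0.00548), but the first call was lost in 5 alternatives, with adjusted p up to 0.288 without sgEED-Mes replicate 1, and the second without sgKMT2D-Epi replicate 1 (0.0591). NDUFB11 shares 44.9% of its exon bases with RBM10 on the opposite strand, so in that shared part reads of the 2 genes cannot be told apart without a strand setting. NDUFB1 rose in the same 2 transitions by 0.90 ± 0.25 and 0.65 ± 0.25 (adjusted p = 0.0117 and 0.0461). It lost its sgEED call with library totals alone (adjusted p = 0.0561) and without sgEED-Epi replicate 1 (0.0941) or sgEED-Mes replicate 1 (0.0607), and its sgKMT2D call when any of the 4 libraries was left out, with adjusted p from 0.0885 to 0.296. NDUFB6 fell by 0.54 ± 0.15 in sgKMT2D and 0.62 ± 0.15 in C2 (adjusted p = 0.00803 and 0.00421), the second lost with only the compared libraries (0.110). It did not pass in sgEED, where it measured 38.2 and 32.4 CPM in sgEED-Mes against 31.3 and 33.0 CPM in sgEED-Epi.

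In complex IV, 1 of the 12 tested nuclear genes rose and 1 fell in sgEED, 0 rose and 2 fell in sgKMT2D (also 0 risen at an unadjusted p under 0.05 in edgeR), and 1 rose and 2 fell in C2. Of all genes, 19.2%, 26.8% and 21% rose and 17.3%, 24.0% and 18.6% fell in sgEED, sgKMT2D and C2. COX7C, named because few genes rose and after its values were seen, rose in sgEED by 0.55 ± 0.15 (adjusted p = 0.0125, edgeR) and lost the call in 5 alternatives, with adjusted p from 0.0607 to 0.128. COX7A2L, which helps to join complexes III and IV, measured 115 and 105 CPM in C2-Mes, against 75.9 and 75.7 CPM in C2-Epi, and rose by 0.53 ± 0.14 (adjusted p = 0.00596), a call lost with no filter (0.0781), with only the compared libraries (0.0924) and without either C2-Epi library (0.0775 and 0.0709).

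Of the 13 mitochondrial genes, 4 rose in sgEED (30.8%, against 19.2% of all genes) and none fell (0 also at an unadjusted p under 0.05 in edgeR). In C2, 5 rose (38.5%, against 21%) and 1 fell (7.69% against 18.6%). In sgKMT2D, 0 rose (also 0 at an unadjusted p under 0.05 in edgeR) and 3 fell (23.1% against 24.0%). Their median log2 changes were 0.65, 0.58 and -0.31. The difference between the sgEED and sgKMT2D changes was called in 5 of the 13 and that between the sgKMT2D and C2 changes in 4 of the 13 (38.5% and 30.8%, against 20.1% and 24.1% of all genes tested). In the first, all 5 differences were positive (9.24% of all genes were called so, and 10.9% negative). In the second, 1 was positive and 3 were negative (12.3% and 11.8% of all genes).

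MT-CYB, cytochrome b of complex III (MT:14747-15887), measured 5834 and 8836 CPM in sgEED-Mes, against 3527 and 3528 CPM in sgEED-Epi. It measured 10061 and 6982 CPM in C2-Mes, against 3432 and 3402 CPM in C2-Epi. It rose by 1.06 ± 0.19 and 1.32 ± 0.19 on the log2 scale (adjusted p = 0.000656 and 9.017e-05, edgeR), under all alternatives. High MT-CYB was not particular to mesenchymal cells: it was 5996 and 5620 CPM in C1 and 6720 and 7677 CPM in sgControl. In sgKMT2D-Mes it measured 7398 and 6991 CPM, against 6434 and 5921 CPM in sgKMT2D-Epi, and the change of 0.22 did not pass. MT-CO1, the catalytic subunit of complex IV, measured 14315 and 21428 CPM in sgEED-Mes, against 8036 and 9268 CPM in sgEED-Epi, and rose by 1.05 ± 0.20 (adjusted p = 0.000932), under all alternatives. In C2 it measured 26491 and 17392 CPM in C2-Mes, against 14244 and 14696 CPM in C2-Epi, and rose by 0.60 ± 0.20 (adjusted p = 0.0275). Without C2-Mes replicate 1 that change was 0.16 (adjusted p = 0.516), and MT-CO3, MT-ND4 and MT-ND5, which also rose in C2, likewise fell to 0.14, 0.13 and 0.15 with adjusted p of 0.606 to 0.720. MT-CO2 and MT-ATP8 rose in sgEED by 0.70 ± 0.20 and 0.89 ± 0.28 (adjusted p = 0.0144 and 0.0224), and without sgEED-Mes replicate 2 stood at 0.33 and 0.21 (adjusted p = 0.295 and 0.558). The number of mitochondrial genes called in sgEED was 9 without sgEED-Mes replicate 1 and 2 without any other of the 4 libraries, and in C2 it was 11 without C2-Mes replicate 2 and 2 without any other. MT-ND1 and MT-ND2, membrane subunits of complex I, fell in sgKMT2D by 0.68 ± 0.25 and 0.75 ± 0.30 (adjusted p = 0.0331 and 0.0483). Both calls were lost without sgKMT2D-Epi replicate 1 or without either sgKMT2D-Mes library, with adjusted p from 0.0859 to 0.168, and with the GC and length correction (0.0610 and 0.0796).

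MT-ATP8 and MT-ATP6, subunits of the proton-conducting part of ATP synthase, share bases, which bears on every value of MT-ATP8. The GENCODE 29 transcripts overlap by 46 bases at MT:8527-8572 (GRCh38, plus strand), printed here because they are 22.2% of the 207 bases of MT-ATP8. Capitals mark the start codon of MT-ATP6.
MT-ATP8 and MT-ATP6 overlap: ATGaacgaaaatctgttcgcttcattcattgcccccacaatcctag

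MT-ND6 followed its own course in C2. This membrane subunit of complex I (ENSG00000198695, MT:14149-14673, minus strand) measured 155 and 154 CPM in C2-Mes, against 385 and 393 CPM in C2-Epi, and fell by 1.34 ± 0.16 on the log2 scale (adjusted p = 1.386e-05, edgeR) while the other 12 mitochondrial genes had positive estimates. It measured 179 and 159 CPM in sgKMT2D-Mes, against 302 and 222 CPM in sgKMT2D-Epi, and fell by 0.63 ± 0.16 (adjusted p = 0.00445). MT-ND1 and MT-ND2 also fell in sgKMT2D. In sgEED-Mes MT-ND6 measured 199 and 209 CPM, against 233 and 239 CPM in sgEED-Epi. Its change of -0.21 did not pass (adjusted p = 0.340), though with library totals alone it did (-0.43, adjusted p = 0.0405). The sgEED and C2 changes differed by 1.13 ± 0.22 (adjusted p = 0.00247), under all alternatives; 21.1% of all genes tested passed this test, 10.2% with a positive and 10.9% with a negative difference. Both called falls of MT-ND6 held under all alternatives.

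Between epithelial populations labelled wild type, MT-ND6 also differed more than the other 12 mitochondrial genes. C2-Epi, with the 385 and 393 CPM given above, lay far above C1 with 69.7 and 84.9 CPM, a log2 difference of 2.33 ± 0.17 (adjusted p = 4.484e-07, edgeR). sgControl had 237 and 198 CPM and differed from C1 by 1.49 ± 0.16 (adjusted p = 3.542e-05), and both differences passed under all alternatives. Relative to the summed CPM of the other 12 genes, MT-ND6 came to 0.682% and 0.663% in C2-Epi, 0.299% and 0.216% in sgControl, and 0.0925% and 0.119% in C1. Of the rest, MT-CYB and MT-CO2 were lower in C2-Epi than in C1 (-0.77 ± 0.19 and -0.59 ± 0.20, adjusted p = 0.00907 and 0.0414), and each call was lost when any of the 4 libraries was left out (adjusted p from 0.0712 to 0.265). Whether reads were counted by strand is not given in the sources used here, so MT-ND6 counts may hold reads from the opposite strand, and the part of these in the differences was not tested. In the files, 2 mitochondrial rRNAs took 1.31% to 2.12% of the counts, and nuclear copies of mitochondrial genes summed to 365 to 982 CPM.

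**Figure D4:**
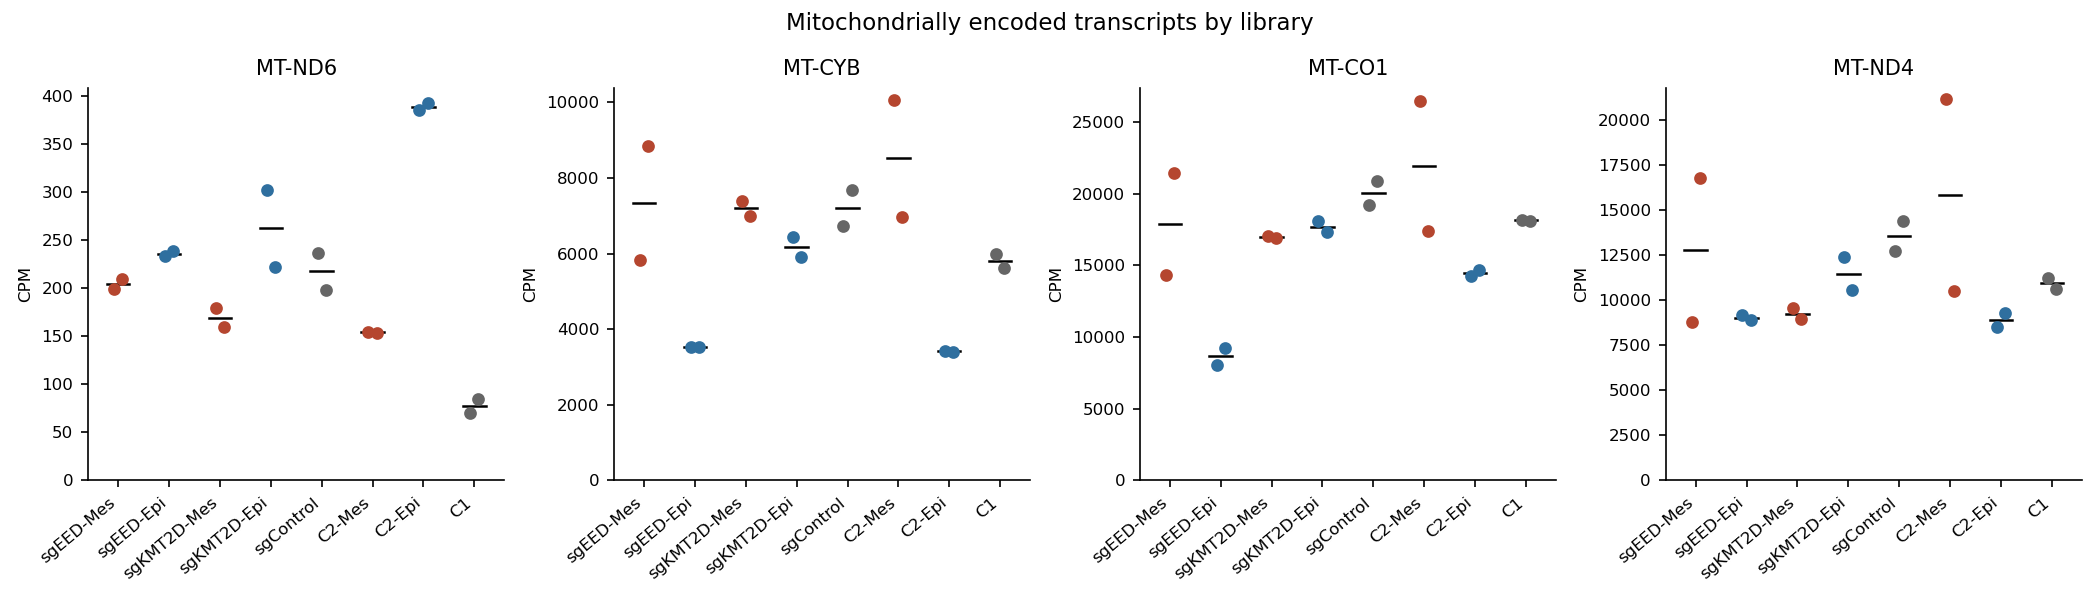
CPM of MT-ND6 and of 3 mitochondrial genes read in the other direction (MT-CYB, MT-CO1, MT-ND4) in each library (points) with pair means (lines); red marks mesenchymal groups, blue the epithelial groups set against them and grey sgControl and C1. MT-ND6 is highest in C2-Epi (385 and 393 CPM) and lowest in C1 (69.7 and 84.9 CPM), a gap the other 3 genes do not show.

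The edited epithelial cells were also set against sgControl and, as an alternative, against C1, and the share of nuclear genes that were lower lay above that of all genes against sgControl, and below or near it against C1. In sgEED-Epi against sgControl, 26 of 81 nuclear genes were lower (32.1%, against 24.6% of all genes) and 5 were higher (6.17% against 24.3%). In sgKMT2D-Epi, 32 were lower (39.5%, against 30.7%) and 7 higher (8.64% against 25.3%). In either direction 38.3% and 48.1% of the nuclear genes were called, against 48.8% and 56.0% of all genes. Both comparisons use the same 2 sgControl libraries, so they are not independent. sgControl itself differed from C1, the population it was made from: 9 nuclear genes were higher (11.1%, against 13.3% of all genes) and 2 lower (2.47% against 13.8%), beside 27.1% of all genes in either direction. Set against C1 instead, 6 nuclear genes were lower in sgEED-Epi (7.41%, against 12.6% of all genes) and 12 in sgKMT2D-Epi (14.8% against 22.4%), shares below those of all genes. With a GC and length correction added, an alternative chosen after seeing the data, 14 and 16 were lower (17.3% and 19.8%, against 16.4% and 19% of all genes), shares near those of all genes. Without the second sgControl library, which had the highest nuclear sum, 10 and 13 were lower, beside 16.5% and 22.2% of all genes. Without sgEED-Epi replicate 1 the first count was 11 (15.1% of all genes), and without sgKMT2D-Epi replicate 1 or 2 the second was 16 or 21 (20.8% or 22.8% of all genes).

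In complex IV, 8 of 12 tested nuclear genes were lower in sgEED-Epi than in sgControl and 9 of 12 in sgKMT2D-Epi (66.7% and 75.0%, against 24.6% and 30.7% of all genes), and none was higher (0 also at an unadjusted p under 0.05 in edgeR, in both). Against C1 the counts were 1 and 3 of 12 (8.33% and 25.0%, against 12.6% and 22.4% of all genes). Against C1 with the GC and length correction added, they were 4 and 5 of 12 (33.3% and 41.7%, against 16.4% and 19% of all genes). With the GC and length correction COX8A turned direction in both (0.02 and 0.19, adjusted p = 0.905 and 0.229) and COX6B1 in sgKMT2D-Epi (0.09, adjusted p = 0.507). COX4I1, the ubiquitous form of subunit 4, measured 141 and 168 CPM in sgEED-Epi and 143 and 133 CPM in sgKMT2D-Epi, against 226 and 298 CPM in sgControl. The differences were -0.76 ± 0.18 and -0.93 ± 0.18 on the log2 scale (adjusted p = 0.00297 and 0.000568, edgeR). C1, with 197 and 201 CPM, lay between, and against it the difference was -0.36 for sgEED-Epi (adjusted p = 0.152) and -0.53 for sgKMT2D-Epi (adjusted p = 0.0290). COX7C was higher in sgControl than in C1 by 0.63 ± 0.15 (adjusted p = 0.00907), and COX7A2L by 0.75 ± 0.14 (adjusted p = 0.00141). Without sgControl replicate 2 these differences were 0.40 for COX7C and 0.66 for COX7A2L. With C1 as the control neither gene passed in sgEED-Epi or sgKMT2D-Epi. With C1 and the GC and length correction, COX7C was lower in sgKMT2D-Epi (-0.74, adjusted p = 0.0141).

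SDHA, UQCRC1 and ATP5MC2 were lower in both edited epithelial populations against both sgControl and C1. SDHA measured 110 and 134 CPM in sgEED-Epi and 129 and 130 CPM in sgKMT2D-Epi, against 228 and 254 CPM in sgControl and 183 and 179 CPM in C1. Its log2 differences from sgControl were -0.99 ± 0.14 and -0.90 ± 0.14 (adjusted p = 9.439e-05 and 0.0001474, edgeR), and from C1 -0.57 and -0.48 (adjusted p = 0.0102 and 0.0168). UQCRC1, a core protein of complex III, measured 143 and 168 CPM in sgEED-Epi and 136 and 152 CPM in sgKMT2D-Epi, against 350 and 414 CPM in sgControl and 277 in both C1 libraries. It differed from sgControl by -1.30 ± 0.24 and -1.41 ± 0.24 (adjusted p = 0.000572 and 0.0002369), and only the sgKMT2D difference from C1 with GC and length correction missed the threshold (-0.23, adjusted p = 0.198). ATP5MC2 differed from sgControl by -1.23 ± 0.19 and -1.45 ± 0.19 (adjusted p = 0.0001378 and 2.592e-05) and from C1 by -0.56 and -0.78 (adjusted p = 0.0425 and 0.00501). UQCRC2 was lower in sgKMT2D-Epi alone: 76.7 and 80.1 CPM, against 197 and 215 CPM in sgControl, a difference of -1.40 ± 0.12 (adjusted p = 5.87e-07), and -1.36 against C1 (adjusted p = 1.874e-06). In sgEED-Epi it was 168 and 176 CPM and did not pass against sgControl.

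Some differences from sgControl changed when GC content and length were corrected for. NDUFA5, a subunit of the matrix arm of complex I, measured 53.1 and 51.2 CPM in sgEED-Epi and 64.7 and 46.4 CPM in sgKMT2D-Epi, against 22.7 and 20.4 CPM in sgControl. It was higher by 1.27 ± 0.24 and 1.37 ± 0.24 (adjusted p = 0.0006302 and 0.000285, edgeR), and with the GC and length correction by 0.17 (adjusted p = 0.581) and -0.18 (0.557). C1 had 39.8 and 42.2 CPM of NDUFA5, above both sgControl libraries. The sgControl difference from C1 was -0.93 (adjusted p = 0.0114, edgeR), and -0.03 with the correction (adjusted p = 0.957). CYC1 was lower than sgControl by -0.72 ± 0.18 and -0.52 ± 0.18 (adjusted p = 0.00513 and 0.0245), and with that correction stood at 0.04 (adjusted p = 0.726) and at 0.73 in the opposite direction (adjusted p = 1.56e-05). SDHA, ATP5MC2 and UQCRC1 kept their calls against sgControl with the correction.

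Among mitochondrial genes, MT-CO1, MT-CO2, MT-CYB and MT-ND3 were lower in sgEED-Epi than in sgControl (4 of 13, 30.8%, against 24.6% of all genes), and MT-CO2 alone in sgKMT2D-Epi (7.69% against 30.7%). MT-CO1 measured 8036 and 9268 CPM in sgEED-Epi, against 19199 and 20886 CPM in sgControl and 18162 and 18130 CPM in C1. It was lower than sgControl by -1.21 ± 0.20 (adjusted p = 0.0002635, edgeR) and than C1 by -1.07 (adjusted p = 0.00176). In sgKMT2D-Epi it measured 18108 and 17302 CPM, just under both libraries of C1, and did not pass against sgControl (-0.18, adjusted p = 0.464). The MT-CO2 call in sgKMT2D-Epi (-0.51 ± 0.20, adjusted p = 0.0430) was lost in 10 alternatives, among them C1 as the control (-0.14, adjusted p = 0.605) and sgControl without replicate 2 (-0.26, adjusted p = 0.433).

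A few nuclear genes stood apart in the C2 cells. NDUFC2, an accessory subunit of complex I (ENSG00000151366, 11:78068304-78080219), measured 53.5 and 57.8 CPM in C2-Epi, against 9.0 and 7.69 CPM in C1, a log2 difference of 2.74 ± 0.26 (adjusted p = 7.229e-06, edgeR) that passed under all alternatives. In this comparison 4 of 81 nuclear genes were higher (4.94%, against 12.4% of all genes) and 13 lower (18.3% of all genes; 30.7% in either direction), and 1 mitochondrial gene was higher and 2 lower. Leaving out any 1 of the 4 libraries left 1 nuclear gene lower, beside 7.38% to 9.04% of all genes, and 2 to 3 higher. NDUFC2 measured 49.9 and 34.8 CPM in C2-Mes, and the 2 C2 groups did not overlap with any other library, of which the highest was 31.3 CPM in sgEED-Mes. It was 24.7 and 20.6 CPM in sgKMT2D-Epi and 14.4 and 18.2 CPM in sgEED-Epi, against 9.02 and 9.04 CPM in sgControl (1.33 ± 0.26 and 0.85 ± 0.26, adjusted p = 0.0006314 and 0.0139). The sgEED call was lost without either sgControl library or without sgEED-Epi replicate 2 (adjusted p from 0.0590 to 0.0828). NDUFC2 shares 18.1% of its exon bases with THRSP and NDUFC2-KCTD14, and NDUFC2-KCTD14 was at 0 in every library.

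ATP5MG, subunit g of the membrane part of ATP synthase, showed the opposite pattern. It measured 47.2 and 45.0 CPM in C2-Epi, against 96.2 and 108 CPM in C1, a log2 difference of -1.15 ± 0.18 (adjusted p = 0.0003507, edgeR) that passed under all alternatives. C2-Mes measured 34.1 and 50.8 CPM, and the 12 libraries outside C2 lay between 89.9 and 113 CPM, so C2 and the rest did not overlap. COX6B2, known as the testis form of a complex IV subunit, measured 8.13 and 8.53 CPM in C2-Epi, against 2.08 and 3.64 CPM in C1, and was higher by 1.54 ± 0.32 (adjusted p = 0.00264). It fell in both C2-Mes (2.92 and 2.94 CPM, -1.51 ± 0.32, adjusted p = 0.00168) and sgEED-Mes (0.254 and 0.396 CPM, against 0.952 and 0.807 CPM in sgEED-Epi, -1.44 ± 0.48, adjusted p = 0.0299). The sgEED call was lost without any 1 of the 4 libraries (adjusted p from 0.0533 to 0.177). In sgKMT2D-Epi 3 and 0 reads were counted, against 162 and 167 in sgControl and 49 and 89 in C1. Of 5 other testis genes, 3 were at 0 in every library and the 5 together reached at most 0.115 CPM. COX6B2 shares 30.9% of its exon bases with another annotated gene. The other 2 nuclear genes higher in C2-Epi than C1 were NDUFB5 (0.47 ± 0.14, adjusted p = 0.0188), lost with the GC and length correction (adjusted p = 0.523), and NDUFV2, named after its values were seen, at 3.90 and 4.27 CPM in C2-Epi against 1.15 and 1.96 CPM in C1 (adjusted p = 0.0467, lost without any 1 of the 4 libraries).

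**Figure D5:**
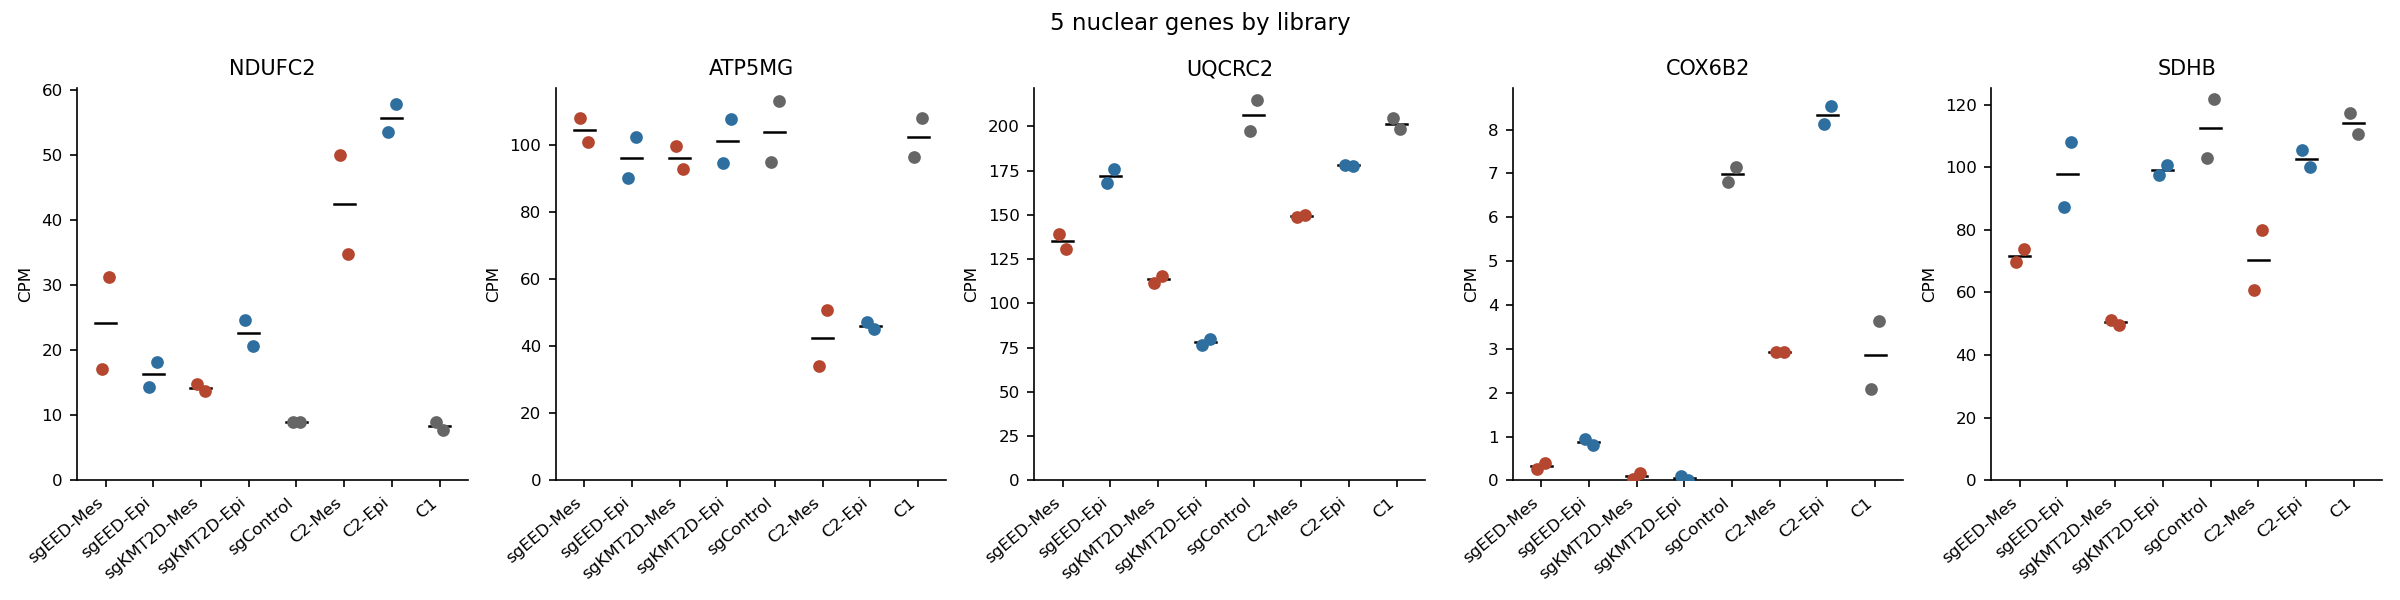
CPM of 5 nuclear genes in each library (points) with pair means (lines); red marks mesenchymal groups, blue the epithelial groups set against them and grey sgControl and C1. NDUFC2 is highest and ATP5MG lowest in the 4 C2 libraries, UQCRC2 is lowest in the 4 sgKMT2D libraries, COX6B2 is at or near 0 in the 4 sgKMT2D libraries, and SDHB is lower in all mesenchymal libraries than in the epithelial ones.

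Lists of the proteins that build and feed the chain were counted the same way, in the main fit alone. How these counts and their named genes depend on the alternatives was not tested. The counts stand beside the 19.2%, 26.8% and 21% of all genes that rose in sgEED, sgKMT2D and C2. The shares of all genes that fell were 17.3%, 24.0% and 18.6%. Of 56 assembly factors, 1 rose and 8 fell in sgEED, 3 and 24 in sgKMT2D and 3 and 11 in C2, so that 14.3%, 42.9% and 19.6% fell, near the shares of all genes in sgEED and C2. COA7, an assembly factor of complex IV, fell in sgEED to 35.1 ± 5.60 CPM in sgEED-Mes, against 84.9 ± 7.98 CPM in sgEED-Epi, and in sgKMT2D to 29.4 ± 0.30 CPM in sgKMT2D-Mes, against 87.0 ± 4.36 CPM in sgKMT2D-Epi (SD, n = 2 each; -1.28 and -1.57, adjusted p = 0.000108 and 1.199e-05, edgeR). Of 37 genes for the replication, transcription and RNA handling of mitochondrial DNA, 19 fell in sgEED, 28 in sgKMT2D and 11 in C2, and 0, 1 and 1 rose, so that 51.4%, 75.7% and 29.7% fell. TFAM, which packages and helps to transcribe mitochondrial DNA, averaged 36.1 ± 1.30 CPM in sgKMT2D-Mes, against 146 ± 14.6 CPM in sgKMT2D-Epi (-2.02, adjusted p = 5.322e-05), and 47.7 ± 23.2 CPM in C2-Mes, against 96.1 ± 7.60 CPM in C2-Epi (-1.02, adjusted p = 0.00984). Of 78 mitochondrial ribosomal protein genes, 27, 47 and 23 fell and 3, 2 and 2 rose, so that 34.6%, 60.3% and 29.5% fell. CYCS, cytochrome c, which carries electrons from complex III to complex IV and lies outside the symbol rule, averaged 63.4 ± 1.51 CPM in sgKMT2D-Mes, against 258 ± 38.6 CPM in sgKMT2D-Epi, and fell by 2.03 (adjusted p = 2.047e-06). It fell by 0.88 in C2 (adjusted p = 0.00260). Of 25 genes of the citric acid cycle and pyruvate dehydrogenase, 6 rose and 3 fell in sgEED, 4 and 16 in sgKMT2D and 2 and 5 in C2, so that 12%, 64.0% and 20.0% fell. PDK4 and PDK2, kinases that switch off pyruvate dehydrogenase, rose in sgEED (1.82 and 1.62, adjusted p = 0.00210 and 1.588e-05) and in sgKMT2D (4.03 and 2.31, adjusted p = 2.478e-06 and 4.254e-07). Of 16 tested regulators of mitochondrial biogenesis, 1 rose and 4 fell in sgEED, 3 and 6 in sgKMT2D and 3 and 1 in C2. PPARGC1B, a coactivator of mitochondrial genes, averaged 2.82 ± 0.52 CPM in sgKMT2D-Mes, against 29.3 ± 1.64 CPM in sgKMT2D-Epi (-3.38, adjusted p = 1.461e-06). Of 17 tested mitochondrial rRNAs and tRNAs, 4, 8 and 8 fell and none rose (0 in each).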

How the data were processed

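The authors deposited 1 table of whole-number read counts per gene for each of 16 libraries (60448 genes). Per the submitters' processing notes, STAR 2.7.1a, featureCounts and GRCh38 were used; annotation release, strand setting and treatment of multiply mapped reads are not given in the sources used here. Per the labels' protocols, total RNA was taken from cultured or sorted cells. Symbols and exons came from GENCODE 29, which matched 94.1% of the genes; promoters came from RefSeq (GRCh38.p14).

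The test used edgeR 4.0.16 under R 4.3.3: filterByExpr (18285 genes), TMM scaling, a model of all 16 libraries with a mean for each group, robust quasi-likelihood tests and Benjamini-Hochberg adjustment within each of 7 comparisons and 3 differences between transitions, over all genes tested. The ± after a log2 change is its SE. The scripts were tested on simulated data. Alternatives were RLE scaling, library totals, no filter, DESeq2 1.42.0, only the compared libraries, a replicate block, a GC and length correction (99.3% of tested genes had both), these 2 together, C1 as the control, and each library left out. Leaving out a library leaves 1 in its group, assumed to vary like the others. The members and lists were chosen with earlier results of these data known. Named genes were the mitochondrial genes, tissue isoforms and their partners, c subunit genes, complex II, CYC1, UQCRC1, UQCRC2, and in each comparison the 4 nuclear genes with the highest and the 4 with the lowest called change at 5 CPM or more; of each list, up to 4 called genes with the largest change. Exact intervals on counts cover counting error only and are not given. The labels do not say whether replicate numbers mark a shared batch. The single-gene result of 1 member under the alternatives is not reported here; the counts include it.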

Additional observations from a re-analysis of the deposited data

Results flagged for a closer look

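Each result here is a gene whose change differed between 2 transitions by a test of the difference itself in edgeR (adjusted p under 0.05 over all 18285 genes); no cause was tested. Of all genes tested, 20.1% passed for sgEED against sgKMT2D, 21.1% for sgEED against C2 and 24.1% for sgKMT2D against C2. A smaller share of the tested respiratory chain genes passed each test. The sgEED change minus the sgKMT2D change was 1.06 for MT-ND1, 1.28 for MT-ND2, 0.84 for MT-CYB, 1.11 for MT-CO1 and 1.58 for MT-ATP8 on the log2 scale. It was 0.67 for NDUFB6, 1.24 for NDUFC2, 0.55 for NDUFS1, 0.84 for SDHD and -0.89 for UQCRC2. Without sgEED-Mes replicate 2, the sgEED change itself went from 0.37 to -0.11 for MT-ND1 and from 0.53 to -0.06 for MT-ND2. It went from 0.89 to 0.21 for MT-ATP8 and from 0.57 to 0.04 for NDUFC2. MT-CYB and MT-CO1 then kept sgEED changes of 0.69 and 0.70. The sgEED change minus the C2 change was 1.13 for MT-ND6 and 0.75 for NDUFB6. The sgKMT2D change minus the C2 change was -1.11 for MT-ND1, -1.33 for MT-ND2, 0.70 for MT-ND6 and -1.10 for MT-CYB. It was 0.80 for NDUFB10, 0.75 for NDUFS4 and 0.79 for UQCRC2. NDUFS1 and NDUFS4, a core and an accessory subunit of complex I, are named because their differences passed, after their values were seen. Groups of 2 libraries were too small for a search for outlying samples.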

How the results depend on the processing

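Counts that moved by over 1.5 times are given by setting, as nuclear genes risen, nuclear genes fallen and mitochondrial genes called. In the sgEED transition (5, 3 and 4), library totals gave 1 risen and 11 fallen, no filter 10 mitochondrial, only the compared libraries 1 risen and 2 mitochondrial, and the GC and length correction 12 risen (13 with the replicate block). In sgKMT2D (7, 18 and 3), library totals gave 4 risen and 5 mitochondrial, no filter 7 mitochondrial, only the compared libraries 19, 31 and 12, and the GC correction 1 mitochondrial (with the block 11 risen and 1). In C2 (2, 10 and 6), library totals gave 20 fallen and 2 mitochondrial, no filter 1, 16 and 10, only the compared libraries 0, 1 and 2, and the GC correction 6 risen and 11 mitochondrial (with the block 6 and 10). In sgEED-Epi against sgControl (5, 26 and 4), no filter gave 7 mitochondrial, C1 as the control 1 risen and 6 fallen, and C1 with GC correction 1 and 14. In sgKMT2D-Epi (7, 32 and 1), mitochondrial calls were 0 with RLE, DESeq2 or the block, 3 with no filter and 2 with only the compared libraries or C1. There 16 rose with the GC correction (14 with the block), 2 rose and 12 fell with C1, and 16 fell with C1 and GC correction. In C2-Epi against C1 (4, 13 and 3), 8 fell with library totals or GC correction (8 with the block), and only the compared libraries gave 10, 46 and 9. In sgControl against C1 (9, 2 and 1), no filter gave 3 mitochondrial, DESeq2 4 fallen, only the compared libraries 14, 5 and 2, and GC correction 11 fallen (10 with the block).

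In the main fit, changes differed in 20.1%, 21.1% and 24.1% of all genes tested in the 3 differences that follow, in turn. Of the 94 tested genes of the set, a smaller share differed in each. They numbered 10 between sgEED and sgKMT2D (no filter 16, block 6), 2 between sgEED and C2 (no filter 4, DESeq2 4, only the compared libraries 1, GC correction 6, with the block 4) and 7 between sgKMT2D and C2 (no filter 14, DESeq2 11, only the compared libraries 4, GC correction 16, with the block 14).

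With 1 library left out, these ranged over 1 to 18, 1 to 27 and 2 to 28. Risen, fallen and mitochondrial counts ranged over 0 to 4, 0 to 5 and 2 to 9 in sgEED, 3 to 5, 9 to 14 and 1 to 3 in sgKMT2D, and 0 to 5, 6 to 38 and 2 to 11 in C2. They ranged over 3 to 5, 10 to 26 and 3 to 4 in sgEED-Epi, and 4 to 7, 13 to 38 and 0 to 1 in sgKMT2D-Epi. Against C1 they ranged over 2 to 3, 1 to 1 and 1 to 1 in C2-Epi, and 1 to 8, 0 to 2 and 1 to 1 in sgControl.

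Of the called genes reported here, some turned direction under the alternatives run in the 2 comparisons with sgControl alone, 5 in sgEED-Epi and 15 in sgKMT2D-Epi, and none when a library was left out. In sgEED-Epi these were CYC1 and COX8A with the GC correction (0.042 and 0.022, with the block 0.042 and 0.022), ATP5PB and COX7A2L with C1 (-0.070 and 0.23; with GC correction -0.28 and 0.0045), and NDUFA4L2 with C1 and GC correction (0.095). In sgKMT2D-Epi, the GC correction and then that with the block put CYC1 at 0.73 and 0.73, NDUFB7 at 0.42 and 0.42, NDUFB11 at 0.31 and 0.31, COX8A at 0.19 and 0.19, COX6B1 at 0.094 and 0.095, UQCRH at 0.0056 and 0.0055, SDHD at -0.15 and -0.15, NDUFA5 at -0.18 and -0.16, and NDUFS1 at -0.30 and -0.29. With C1, UQCRH stood at 0.090 and COX7A2L at 0.16. With C1 and GC correction, CYC1 stood at 0.55, NDUFB11 at 0.33, UQCRH at 0.23, NDUFA7 at 0.085, NDUFV1 at 0.043, NDUFS1 at -0.054, NDUFB6 at -0.11, NDUFB3 at -0.14, ATP5PB at -0.20 and NDUFA5 at -0.21. The cause was not tested. Correlations of same-numbered deviations between groups ran from -0.37 to 0.34. With 2 libraries per group, they cannot show whether same-numbered libraries shared a batch. The block fit gave 6 risen, 3 fallen and 4 mitochondrial in sgEED. Each group had 2 libraries, and COX6B2 and the genes under 5 CPM rest on few reads.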
